A study of Mus musculus with 61 samples.

Results

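Clustered shared Sox2 sites are the places in the mouse genome where Sox2 was called at day 3 of reprogramming in the control cells and in both CAF-1 knockdowns, and where another such place lay close by. They were chosen by the calls themselves. The positions of 3 deposited Sox2 lists were pooled, neighbours within 200 bp were joined into a site, and a site was kept as shared when all 3 lists held it. A shared site was clustered when the centre of another shared site, the centre being the mean of its positions, lay within 10 kb. Of 25432 joined sites, 11004 were shared, and 2573 of these were clustered, in 1160 clusters. The other 8431 shared sites are called isolated below.

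The cells were fibroblasts from E13.5 embryos of strain Black6-129X1/SvJ. All of them carried Col1a1::tetOP-OKSM, a doxycycline-inducible cassette of the reprogramming factors Oct4, Klf4, Sox2 and Myc, and R26-M2rtTA, the transactivator that switches it on, so the control cells were reprogrammed too. They were grown in serum/LIF medium with ascorbate and received doxycycline at 2ug/ml for 3 days. One group expressed a hairpin against Renilla luciferase, the control, and the others expressed Chaf1a.166 or Chaf1a.2122, which target the largest subunit of CAF-1. Each hairpin had 1 Sox2 immunoprecipitate and 1 input library, so no difference between hairpins has a replicate check and none was tested. Sono-seq, an assay that reads which parts of fixed chromatin break readily when sonicated, had 3 libraries for CAF-1 knockdown and 3 for Renilla, deposited as 1 value per region and condition. The cells are mixed populations on their way to pluripotency, so a site may be bound in only some of them. Read depth and the level of Chaf1a were not analysed here.

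Sox2 is a transcription factor with an HMG box, which binds the minor groove of DNA at short sequences such as CATTGT and ACAAAG. With Oct4, which binds the octamer ATGCAAAT, it occupies composite elements in which a Sox2 word and an octamer lie side by side, and these control many genes of pluripotent cells. Regulatory regions often hold several binding sites within a few kilobases. CAF-1 loads histones H3 and H4 onto newly replicated DNA.

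The strongest clustered site of all lay at the start of Nrarp, which encodes a feedback inhibitor of Notch signalling. Its mean score rank percentile over the 3 lists, where 0 is the best score of a list, was 0.0321. Among the 51 genes with a start within 500 bp of a clustered site, the next best site belonged to Pipox, which encodes a peroxisomal oxidase, at 0.325. Both were singled out here after their values were seen. The 250 bases before each start are shown because they hold ATTGT, a shortened form of the Sox2 word CATTGT, beside an octamer. They come from RefSeq, build GRCm38.p6, at chr2:25180508-25180757 on the plus strand for Nrarp and at chr11:77893873-77894122 on the minus strand for Pipox. They run 5′ to 3′ toward the start, and capitals mark a match to one of the motifs searched.
Nrarp: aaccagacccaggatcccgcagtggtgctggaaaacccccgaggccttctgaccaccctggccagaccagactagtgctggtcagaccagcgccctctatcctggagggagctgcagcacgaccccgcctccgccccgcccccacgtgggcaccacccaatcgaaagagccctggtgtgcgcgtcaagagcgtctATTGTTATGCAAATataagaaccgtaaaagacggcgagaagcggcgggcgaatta
Pipox: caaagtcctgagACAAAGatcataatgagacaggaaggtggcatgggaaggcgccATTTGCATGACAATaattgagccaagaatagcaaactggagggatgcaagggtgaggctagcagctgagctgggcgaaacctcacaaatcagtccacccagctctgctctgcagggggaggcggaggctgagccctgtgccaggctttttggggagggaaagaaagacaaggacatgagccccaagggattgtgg

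The search used the Sox2 word CATTGT, which reads as ACAATG on the other strand, and the Sox2 word ACAAAG, which reads there as CTTTGT. It also used the octamer ATGCAAAT, which reads there as ATTTGCAT. The last motif was a composite on either strand: the word ATTGT, then 1 base of any kind, then the octamer. The composite thus contains the octamer. Its word ATTGT is CATTGT without the first base, and neither Nrarp nor Pipox holds the full CATTGT. The composite was added after the Nrarp sequence had been seen, so the match in Nrarp was fixed by this choice. In Nrarp the composite began 55 bases before the RefSeq start, and the mean Sox2 position lay 59 bp before the start given in the Sono-seq table. In Pipox it began 195 bases before the start and the site lay 188 bp before it. The table uses mm9 and the sequences GRCm38.p6, so these distances were measured in different builds and are set side by side only. The composite was present in 6 of 32851 promoter sequences of the same length (0.0183%), and in 2 of the 3240 of genes in the Sono-seq table with a single promoter (0.0617%). It was present in 2 of the 27 sequences of genes with a start within 250 bp of a clustered site, namely Nrarp and Pipox, and in 0 of the 85 of genes with a start that close to an isolated site. Only genes with a single promoter in the RefSeq table were counted in these sets, which left 27 of 42 and 85 of 125 genes. The sets took sites on either side of the start, so a site after the start lay outside the sequence searched. A match is a description of the letters and does not show where Sox2 bound.

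Single Sox2 or octamer words were more common. CATTGT was found in 4 of the 27 sequences near clustered sites, in 16 of the 85 near isolated sites in 10.7% of all promoter sequences and in 5.59% of those of the Sono-seq table's genes, from which both sets were drawn. ACAAAG was found in 9 and 26 of these, in 16.5% of all and in 11.5% of the table's. ATGCAAAT was found in 6 and 3, in 1.60% of all and in 2.07% of the table's. Spred2, an inhibitor of Ras-MAPK signalling, and Tle3, a corepressor of Wnt target genes, are shown as promoters with 1 Sox2 word each (GRCm38.p6, chr11:19924192-19924441 and chr9:61372116-61372365, both plus strand). Their sites lay 197 and 94 bp before the table's start.
Spred2: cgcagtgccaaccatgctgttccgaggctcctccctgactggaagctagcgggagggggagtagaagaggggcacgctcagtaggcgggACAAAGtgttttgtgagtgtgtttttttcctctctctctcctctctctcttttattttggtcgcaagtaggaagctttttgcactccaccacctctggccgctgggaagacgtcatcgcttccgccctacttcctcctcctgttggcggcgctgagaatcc
Tle3: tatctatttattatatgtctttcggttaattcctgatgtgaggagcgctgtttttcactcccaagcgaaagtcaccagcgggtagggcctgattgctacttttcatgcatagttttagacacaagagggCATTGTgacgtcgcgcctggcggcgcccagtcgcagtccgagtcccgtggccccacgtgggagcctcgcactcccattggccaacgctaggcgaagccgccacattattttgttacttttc

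Of the 6 sequences with an octamer, 3 came from genes for histone H2B (Hist1h2bb, Hist1h2bm and Hist1h2bk), and the others were Nrarp, Pipox and Btf3l4. All 4 H2B genes with a start within 500 bp of a clustered site are shown, since 3 hold the octamer and the fourth, Hist1h2bh, holds none of the motifs. RefSeq names them H2bc3, H2bc14, H2bc12 and H2bc9, in this order. They lie on chromosome 13 of GRCm38.p6 at 23746484-23746733, 21721794-21722043, 22035571-22035820 (plus strand) and 23543445-23543694 (minus strand).
Hist1h2bb: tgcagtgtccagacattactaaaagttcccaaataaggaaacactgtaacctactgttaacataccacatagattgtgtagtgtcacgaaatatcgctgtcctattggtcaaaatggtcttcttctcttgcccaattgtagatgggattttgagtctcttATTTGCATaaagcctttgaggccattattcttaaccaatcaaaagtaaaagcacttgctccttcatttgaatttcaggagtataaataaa
Hist1h2bm: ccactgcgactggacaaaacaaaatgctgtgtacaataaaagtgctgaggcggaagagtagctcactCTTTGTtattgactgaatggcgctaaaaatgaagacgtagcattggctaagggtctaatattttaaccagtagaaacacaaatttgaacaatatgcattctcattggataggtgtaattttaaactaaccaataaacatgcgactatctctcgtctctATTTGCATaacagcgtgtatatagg
Hist1h2bk: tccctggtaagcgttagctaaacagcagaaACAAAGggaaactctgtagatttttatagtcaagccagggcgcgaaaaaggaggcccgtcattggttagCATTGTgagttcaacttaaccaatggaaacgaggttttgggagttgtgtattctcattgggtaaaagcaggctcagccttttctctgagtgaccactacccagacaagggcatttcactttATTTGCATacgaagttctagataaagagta
Hist1h2bh: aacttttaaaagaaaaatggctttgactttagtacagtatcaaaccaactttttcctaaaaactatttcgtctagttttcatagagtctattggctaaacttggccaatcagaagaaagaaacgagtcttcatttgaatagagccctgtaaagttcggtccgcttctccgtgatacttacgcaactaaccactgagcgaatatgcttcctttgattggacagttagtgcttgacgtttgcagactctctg

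The octamer began 90 bases before the start in Hist1h2bb, 25 in Hist1h2bm and 30 in Hist1h2bk. It is a known element of H2B promoters, where Oct1 binds it. Of the 16 H2B genes in the Sono-seq table, 12 had a single promoter sequence, and 5 of these 12 held the octamer.

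Most clusters were pairs. There were 957 clusters of 2 sites, 167 of 3, 27 of 4, 6 of 5, 1 of 6 and 2 of 7. Clustered sites made up 23.4% of shared sites (95% exact Clopper-Pearson interval 22.6 to 24.2, which covers counting error only and takes sites as independent). A cluster spanned a median of 4380 bp from its first to its last centre, with a range from 249 to 31557 bp. Neighbouring centres within clusters lay a median of 3648 bp apart.

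Most shared sites had no shared neighbour within 10 kb, and below 30 kb short distances between neighbours were the most frequent. The 1 kb bin from 1 to 2 kb held 229 pairs of neighbours and the bin from 0 to 1 kb held 199. The latter lacks the shortest distances by construction, since positions within 200 bp were joined. Counts fell to 80 in the bin from 9 to 10 kb, just inside the limit, and stood at 98 in the bin from 10 to 11 kb, just outside it. No break was visible at 10 kb, so the limit cuts through a continuous range of distances. Scores near the limit were as follows. In the Renilla list the 124 sites with their nearest centre at 9 to 10 kb had a median score of 27.2, and the 160 sites with it at 10 to 11 kb had one of 31.8.

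**Figure D1:**
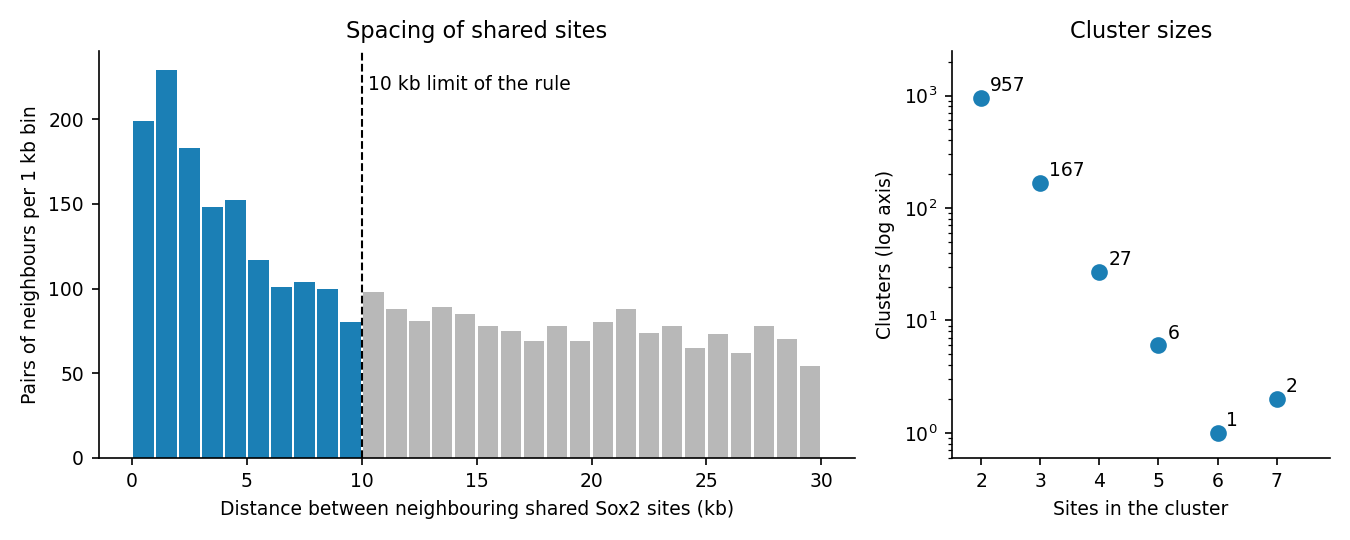
Left, pairs of neighbouring shared Sox2 sites per 1 kb bin of the distance between their centres, with the 10 kb limit as a dashed line and clustered pairs in blue. Right, the number of clusters by their number of sites on a log axis, falling from 957 pairs to 2 clusters of 7.

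Clusters were spread over all 20 chromosomes with sites. The clustered share was highest on chromosome 19, with 92 of 331 shared sites (27.8%), and lowest on the X chromosome, with 25 of 188 (13.3%). Chromosome 2 held the most clusters, 101, but also the most shared sites, 857, of which 26.1% were clustered. The X chromosome had the fewest shared sites.

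Sites held by only 1 or 2 lists were also denser around clusters. Within 10 kb of a clustered site there were 696 of them, or 24.1 per Mb (exact Poisson interval 22.3 to 26.0), against 2546, or 15.4 per Mb (14.8 to 16.0), around isolated sites. The density around clusters was the higher one for each of the 6 kinds of site, but the intervals overlapped for the kind held by Renilla and Chaf1a.166, at 1.70 per Mb (1.26 to 2.24) against 1.31 (1.1 to 1.5). Those of the Renilla list alone stood at 5.26 per Mb around clusters and 2.95 around isolated sites. Those of Chaf1a.166 alone stood at 3.46 and 2.13, and those of Chaf1a.2122 alone at 6.79 and 4.42. Those of both knockdown lists without Renilla stood at 2.74 and 1.92, and those of Renilla and Chaf1a.2122 at 4.16 and 2.64. No test was made, because these sites came from the same calls as the rule.

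The scores are the authors' own values of single positions. Scores of a site in the 3 lists are printed side by side but are not compared between lists, since lists of 17681, 15888 and 19319 positions (Renilla, Chaf1a.166, Chaf1a.2122) are not on a common scale. Clustered sites had nearly the same ranks as isolated ones. In the Renilla list the median rank percentile was 31.7 (95% order-statistic interval 30.2 to 33.5) for clustered and 32.0 (31.3 to 32.7) for isolated sites. In the Chaf1a.166 list it was 34.1 (32.8 to 35.5) and 35.7 (34.9 to 36.6). In the Chaf1a.2122 list it was 28.2 (27.0 to 29.5) and 29.4 (28.8 to 30.2). The intervals of clustered and isolated sites overlapped in each list. Enrichment over input, also the authors' value, had a median of 10.3 in both sets in the Renilla list. The intervals take sites as independent, which members of a cluster are not. The ranks come from the calls that chose the sites, so they are a description.

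**Figure D2:**
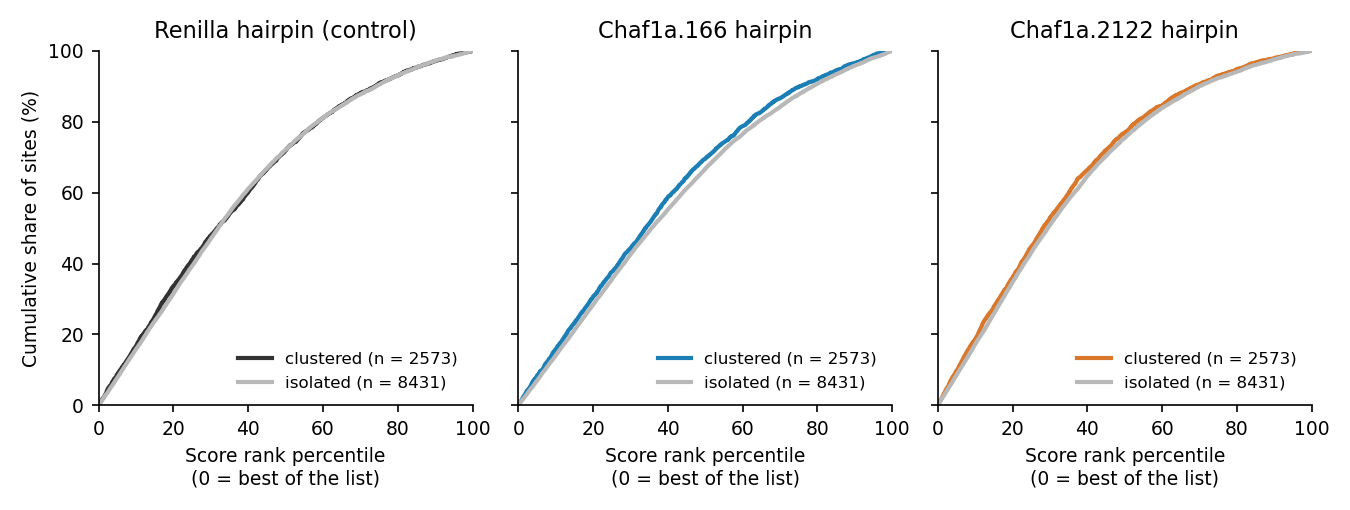
Cumulative share of sites (%) against score rank percentile within each list, for 2573 clustered sites in colour and 8431 isolated sites in grey. The curves lie almost on top of each other, with medians of 31.7 and 32.0 in the Renilla list.

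The top of each list had a slightly larger clustered share than all shared sites. Of the 100 best positions, 28 were clustered in the Renilla list, 26 in Chaf1a.166 and 26 in Chaf1a.2122, each with an interval that includes 23.4%. Of the 1000 best they were 253, 254 and 256. Rank changed little with cluster size: in the Renilla list the median percentile was 32.0 for sites in pairs, 29.4 in clusters of 3 and 33.1 in larger clusters.

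The spacing of the lists' positions within a site is limited by the rule, which joined positions within 200 bp and kept sites held by all 3 lists, so it is a description. Among clustered sites with a single position in each list, the Renilla and Chaf1a.166 positions lay a median of 27 bp apart, and the Renilla and Chaf1a.2122 positions 28 bp apart. Isolated sites gave 27 bp for both.

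Within pairs, the same site had the higher score in all 3 lists in 664 of 957 pairs (69.4%, 66.4 to 72.3). Ordered by the authors' enrichment in place of the score, this share was 41.0%. The order in both knockdown lists was the reverse of that in Renilla in 114 pairs. Chaf1a.166 alone stood against the others in 91 pairs, and Chaf1a.2122 alone in 88. In the Renilla list the higher score was a median of 2.04 times the lower one where all lists had the same order, and 1.27 times where they did not. Over clusters of all sizes, 799 of 1160 had the same best site in every list.

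The 10 strongest clustered sites had nearest neighbours ranked between 1543 and 12787 in the Renilla list. Lower ranks of the neighbours follow from the choice, since the 10 were picked as the best by the same scores. The Nrarp site (mm9 chr2:25036218) scored 340.1 in Chaf1a.166 and 319.6 in Chaf1a.2122, and ranked 8, 4 and 5 in the Renilla, Chaf1a.166 and Chaf1a.2122 lists. Its neighbour 2212 bp away ranked 9472, 4755 and 16413. The second strongest clustered site, 73004 bp from the start of Fignl1, which encodes an AAA ATPase, ranked 7, 10 and 9, and its neighbour ranked 7785, 6461 and 6419. The third, 18339 bp from the start of Klf13, a zinc finger factor, ranked 11, 7 and 12, with a neighbour at 8694, 4068 and 9400. A site 513 bp from the start of Otud7b, a deubiquitinase gene, ranked 27, 24 and 18. One 6253 bp from the start of Socs3, which encodes an inhibitor of the signalling that LIF sets off, ranked 49, 23 and 26. The best rank of these 5 nearest neighbours in any list was 4068. These 5 sites, at places 1, 2, 3, 6 and 9 of the 10, were picked after their values were seen.

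Both clusters of 7 sites lay far from any start in the Sono-seq table, the only source here that pairs mm9 starts with names, so genes missing from it are not seen. The first, at mm9 chr4:29010270-29029399, had no listed start nearer than 3981080 bp. Its best site scored 81.5 in Renilla, 98.7 in Chaf1a.166 and 100.4 in Chaf1a.2122. Its weakest scored 16.4, 35.8 and 25.7. The best site was the same in all 3 lists, and the mean percentile over its sites was 15.9. The second, at chr2:117693371-117717723, lay 587709 bp from the start of Srp14, which encodes a subunit of the signal recognition particle. Its best-ranked site scored 57.0, 48.8 and 48.7 in Renilla, Chaf1a.166 and Chaf1a.2122, and the best site was not the same in every list.

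Of the other 8 clusters with the most sites, 5 had a start within 50 kb among ordinary genes. The cluster of 6 at chr12:16843377-16874934 lay 26849 bp from Rock2, a kinase of the actin cytoskeleton, and had weak sites, with a mean percentile of 52.2. The cluster of 5 at chr13:34171959-34189178 lay 2082 bp from Tubb2a, a beta-tubulin gene that also had an assigned enhancer within 50 kb. Its best site scored 72.6, 61.5 and 68.7 in Renilla, Chaf1a.166 and Chaf1a.2122, highest of its cluster in every list. Clusters of 5 also lay 13449 bp from Mrpl33, which encodes a mitochondrial ribosomal protein, and 1505 bp from Dpysl3, which encodes a cytoskeletal protein of neurons. A cluster of 4 lay 48439 bp from 4933426M11Rik. The cluster of 5 at chr13:21813761-21827450 lay among 10 histone genes. The 2 others, both of 5 sites, had no listed start or enhancer within 50 kb.

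The 5 clusters with the best mean percentile were all pairs. The best, at chr1:135591196-135592689, had a mean percentile of 1.52 and lay 33239 bp from the start of Zc3h11a, a zinc finger gene, with Zbed6 also within 50 kb. Its first site scored 128, 131 and 113 in the Renilla, Chaf1a.166 and Chaf1a.2122 lists, and its second 109, 119 and 100.0, so both were strong in all 3. A pair at chr5:147967212-147971021 had assigned enhancers of Lnx2 and Pan3 within 50 kb and a mean percentile of 2.29. The other 3 pairs had neither a start nor an enhancer within 50 kb.

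**Figure D3:**
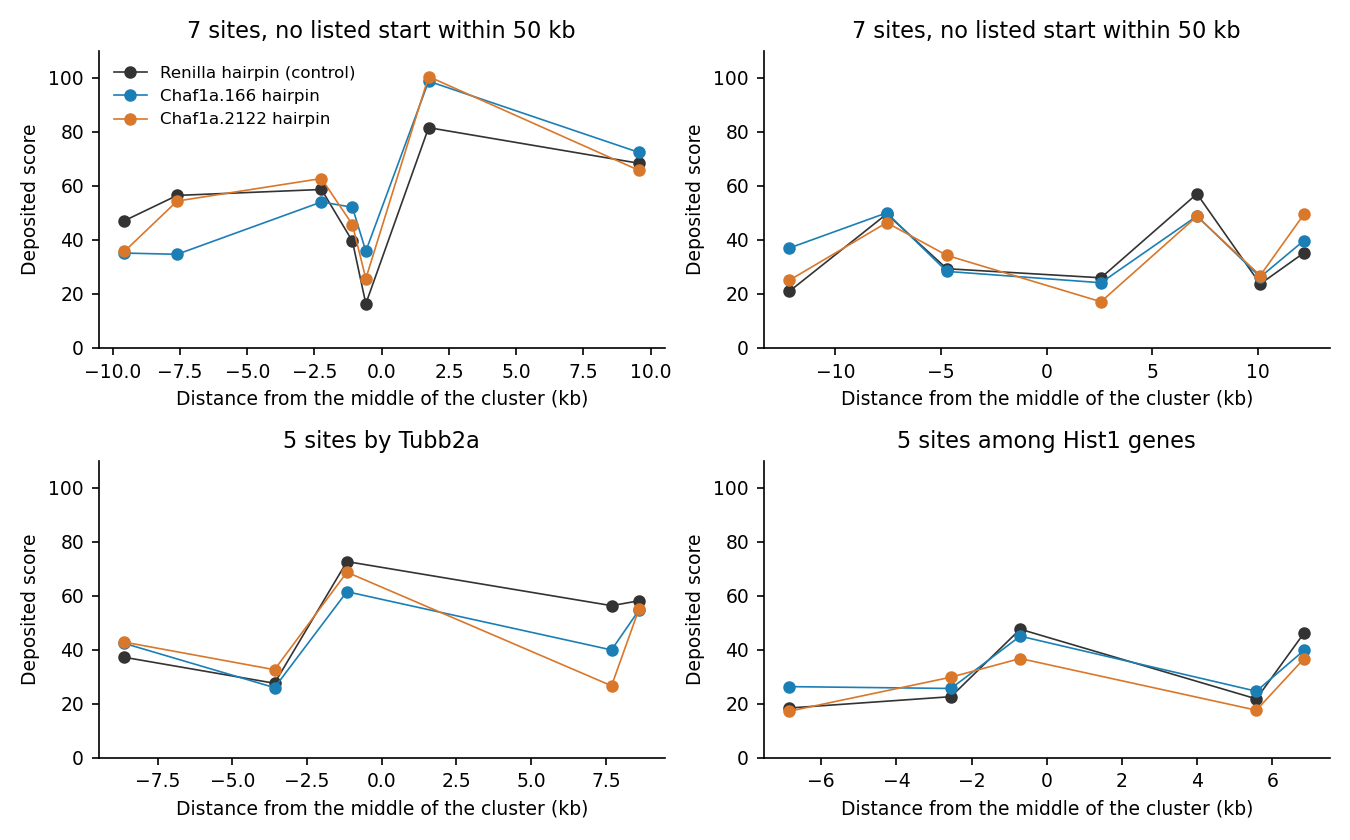
Deposited score of each site against its distance from the middle of the cluster (kb), for 4 of the clusters with the most sites, with a point per hairpin and lines that only join neighbours. The best site was the same in all 3 lists in each plotted cluster except the second cluster of 7. In the first cluster the weakest site scored 16.4 to 35.8 and the best 81.5 to 100.4.

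Most clusters lay away from the listed regions. A start lay within 50 kb of 354 clusters (30.5%) and an enhancer assigned in ES cells within 50 kb of 455 (39.2%), while 681 (58.7%) had neither. Clustered sites were nearer to genes than isolated ones at long range and not at the start itself. Within 50 kb of a start lay 30.0% of clustered sites (28.3 to 31.9) and 25.3% of isolated ones (24.4 to 26.2). Within 10 kb the shares were 11.7% (10.4 to 13.0) and 8.59% (8.00 to 9.21). Within 500 bp they were 1.94% (1.45 to 2.55) and 1.90% (1.62 to 2.21). For enhancers they were 23.9% (22.3 to 25.6) and 16.7% (15.9 to 17.5) within 10 kb, and 3.58% (2.89 to 4.37) and 2.72% (2.38 to 3.09) within 500 bp. These intervals take sites as independent, which members of 1 cluster are not, and the shares were not tested.

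Of the 5154 genes in the table, 528 (10.2%) had a start within 50 kb of a clustered site, 768 an assigned enhancer, 809 either and 487 both. A gene here means a symbol, and genes that sit side by side share their clusters. For 3 genes a start and an enhancer assigned to the gene lay within 500 bp of sites in 1 cluster. These were Ptpn3, which encodes a protein tyrosine phosphatase, Tek, the angiopoietin receptor of endothelial cells, and Tesk2, a kinase gene. At the Tek start the site ranked 973 in Renilla, 533 in Chaf1a.166 and 729 in Chaf1a.2122.

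The 10 genes with a start closest to a clustered site were Malat1 and Cbx1 (0 bp), Eif1ad (3.00 bp), Cttnbp2nl, Prr13, BC030867, Sfpq, Hbp1, Pdik1l and Gja1 (52.3 bp). They include the nuclear non-coding RNA Malat1, in a cluster of 4 sites, Cbx1, which encodes the heterochromatin protein HP1 beta, Sfpq, a splicing and paraspeckle protein, and Gja1, the gap junction protein connexin 43. Most of these sites were weak. The Cbx1 site scored 13.6 in Renilla, 18.3 in Chaf1a.166 and 19.0 in Chaf1a.2122, and ranked 17312 of 17681 in the first. The Malat1 site scored 19.6, 18.4 and 22.0, and the Gja1 site 22.2, 24.7 and 35.1.

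Genes of the pathways listed for this tissue are given next by their starts, against the 10.2% of all genes. With a start or an assigned enhancer within 50 kb counted, the share of all genes was 15.7%. On that count there were 5 of 34 pluripotency, 1 of 8 SOX and POU, 4 of 7 fibroblast and 1 of 10 epithelial genes. The signalling lists gave 4 of 10 (FGF and MAPK), 5 of 15 (Wnt), 6 of 17 (TGF-beta and BMP) and 2 of 10 (Notch). The list of CAF-1 and histone chaperones gave 2 of 9. Of 34 pluripotency genes in the table, 3 had a start within 50 kb of a clustered site. Nanog, a core factor of the naive state, lay 4457 bp from a site of a pair 439 bp apart. That site scored 26.6 in Renilla, 19.4 in Chaf1a.166 and 18.5 in Chaf1a.2122. Trim28, a corepressor of retroelements, lay 854 bp and Stat3, the effector of LIF, 23205 bp from their sites. The start of Sox2 itself was outside the window, 89809 bp from the nearest clustered site. An enhancer assigned to Sox2 lay 3711 bp from a clustered site. None of 8 SOX and POU factor genes had a start within the window.

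Of 7 fibroblast genes in the table, 4 were within the window. Fn1, which encodes fibronectin, lay 188 bp from a site that scored 25.7 in Renilla, 19.2 in Chaf1a.166 and 34.8 in Chaf1a.2122. Ctgf, a matricellular gene switched on by YAP and TEAD, lay 65.0 bp from a site that scored 19.7, 16.0 and 30.8. Tead1 lay 11996 bp and Cyr61, another matricellular gene, 35273 bp from a clustered site. Of 10 epithelial genes, 1 was within the window, the tight junction gene Tjp1 at 45149 bp.

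Signalling genes are given by pathway. In the FGF and MAPK list 3 of 10 genes were within the window. Dusp6, an ERK phosphatase, lay 82.0 bp from a site that scored 30.1 in Renilla, 25.6 in Chaf1a.166 and 19.8 in Chaf1a.2122. Spred2 lay 197 bp from one that scored 18.8, 17.0 and 13.9. The receptor gene Fgfr1 lay 17192 bp away.

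In the Wnt list 3 of 15 genes were within it. Fzd7, a Wnt receptor gene, lay 3058 bp from a strong site that ranked 863 in Renilla, 690 in Chaf1a.166 and 635 in Chaf1a.2122. Tle3 lay 94.0 bp from a site that scored 19.1, 22.0 and 25.7, and Lgr4, an R-spondin receptor gene, lay 24683 bp away. In the TGF-beta and BMP list 3 of 17 genes were within it, namely the BMP target genes Id1 (1047 bp) and Id3 (3117 bp), which encode inhibitors of basic helix-loop-helix factors, and Smad4 (41921 bp), the common mediator of the pathway. The Id3 site belonged to a cluster of 3 and scored 30.2, 27.8 and 33.5. In the Notch list Nrarp was the only 1 of 10 with a start within the window.

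Of 9 genes for CAF-1 and other histone chaperones, Rbbp4 alone had a start within the window. It encodes a histone-binding protein that is the small subunit of CAF-1 and of several other chromatin complexes. Its start lay 60.7 bp from a site in a cluster of 4, which scored 17.8 in Renilla, 31.3 in Chaf1a.166 and 16.6 in Chaf1a.2122. The site was in the weaker part of the Renilla and Chaf1a.2122 lists, at ranks 11743 and 12860.

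**Figure D4:**
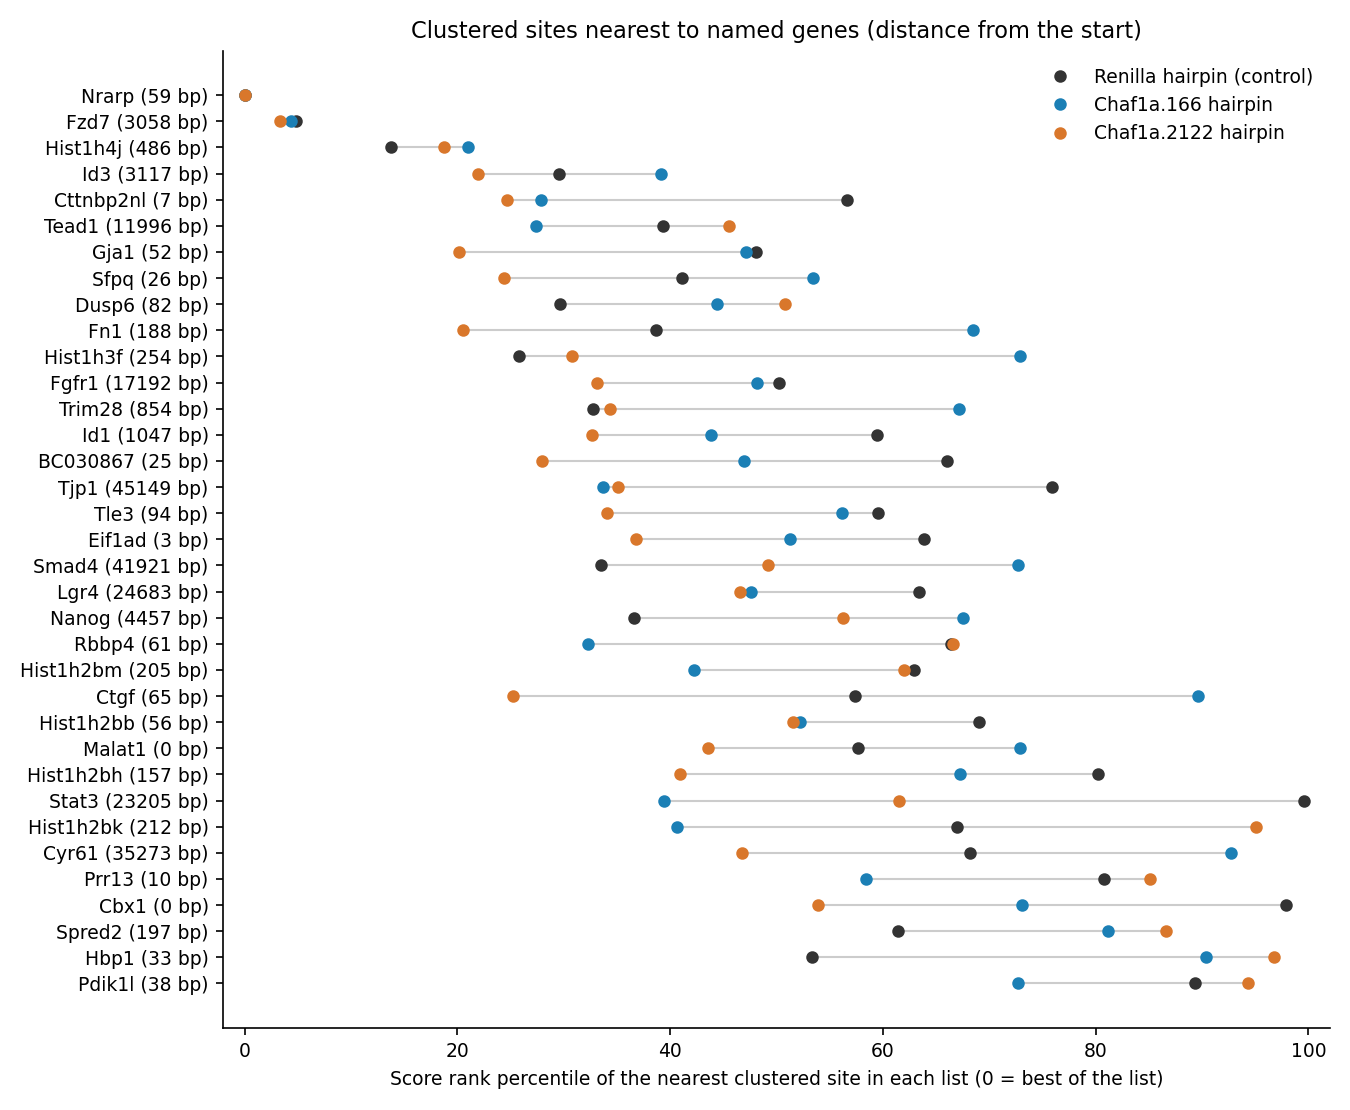
Score rank percentile (0 is the best of a list) of the clustered site nearest to each named gene, with a point per hairpin, a grey line over their range and the distance to the start in bp. Nrarp and Fzd7 stand at the strong end in all 3 lists, while most sites near starts lie in the middle or weak part of the lists.

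Histone genes, picked out after the values were seen, were often within the window. Of 57 genes with a Hist symbol, which encode histones, in the table, 41 had a start within 50 kb of a clustered site, 26 within 10 kb and 6 within 500 bp. The shares over all genes of the table were 10.2%, 3.82% and 0.99%. Those with a site lie in gene arrays on chromosome 13, so a few sites account for many genes: 7 clusters held the nearest sites. The 6 genes within 500 bp were Hist1h2bb, Hist1h2bh, Hist1h2bm, Hist1h2bk, Hist1h3f and Hist1h4j. Histone genes are near-identical copies, so reads could be split between them or lost, and the site calls are uncertain to that extent.

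Most histone sites within 500 bp of a start were in the weaker part of the lists: 4 of the 6, all at H2B genes, had mean rank percentiles of 55.7 to 67.6. The Hist1h4j site scored 46.2 in Renilla, 39.8 in Chaf1a.166 and 36.7 in Chaf1a.2122, the best of the 6. The Hist1h2bb site scored 17.3, 23.0 and 19.7, and the Hist1h2bk site 17.7, 27.1 and 12.9. Of 14 H2A genes 7 were within 50 kb, of 16 H2B genes 10, of 10 H3 genes 9, of 12 H4 genes 10 and of 5 H1 genes all 5. Within 500 bp of a clustered site lay 4 H2B genes, 1 H3 and 1 H4 gene, and within 500 bp of any shared site 4, 2 and 3.

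Sono-seq values at clustered sites moved in both directions. The values carry no stated unit and no spread over libraries, so each ratio below is a description. Of 92 enhancers within 500 bp of a clustered site, 49 (53.3%) were higher in CAF-1 knockdown, against 55.3% of all enhancers. Their median log2 ratio was 0.012 (-0.027 to 0.13), against 0.028 over all 14265. The 229 enhancers at isolated sites had a median of 0.016. Of 53 promoters at clustered sites 26 (49.1%) were higher, against 48.2% of all promoters, and their median was -0.0041 (-0.16 to 0.10), against -0.0093 over all 5513. The shares at clustered sites were close to the background.

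The largest ratios among enhancers and promoters above the median level all belonged to enhancers. Among the highest were the log2 ratios, CAF-1 over Renilla, of those assigned to Srgap3 (0.44), Tmem55a (0.39), Smad7, which encodes an inhibitor of TGF-beta signalling (0.35), and Slc1a4, an amino acid transporter gene (0.33). Other enhancers of these genes within 500 bp of a clustered site differed, at 0.063 for Srgap3 and -0.086 for Slc1a4. An enhancer assigned to several genes is named by only 1 of them. The lowest were those of Lrrfip1 (0.117 with the CAF-1 and 0.186 with the Renilla hairpins, a log2 ratio of -0.67), Fam107b (-0.47), Mtmr2 (-0.46), Pdlim5 (-0.42) and Rassf3 (-0.41). The spread of log2 ratios over the 92 enhancers was 0.26 (SD over regions), near the 0.23 over all enhancers.

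**Figure D5:**
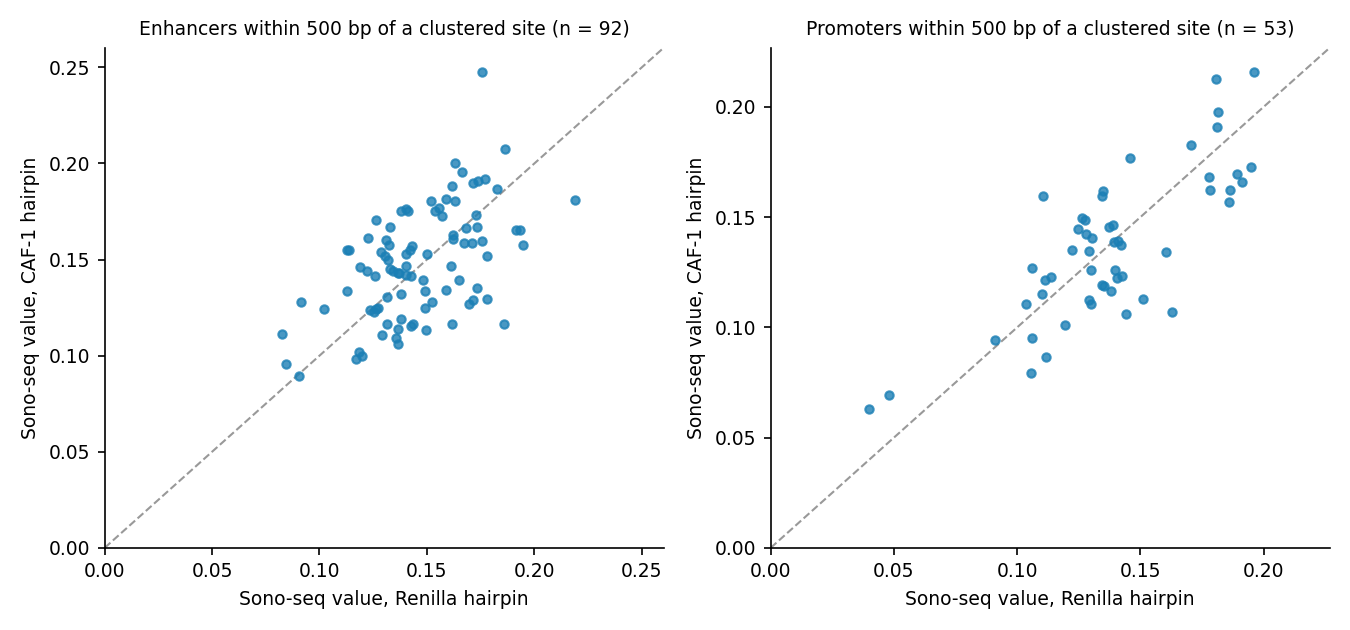
Deposited Sono-seq value in CAF-1 knockdown against that in Renilla for 92 enhancers and 53 promoters within 500 bp of a clustered site, with the line of equal values dashed. Points lie on both sides of the line, 49 of 92 enhancers and 26 of 53 promoters above it.

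Among starts within 500 bp of a clustered site, Nrarp, Pipox and Tek had the best-ranked sites. Their values were lower in CAF-1 knockdown. The log2 ratios were -0.15 (Nrarp), -0.049 (Tek) and -0.20 (Pipox), against a lower quartile of -0.16 over all promoters. Lower values were common, since only 48.2% of all promoters were higher in CAF-1 knockdown. At Fzd7, 3058 bp from a site ranked much like that of Tek, the log2 ratio was 0.15. A link between site rank and Sono-seq value was not tested. The Nrarp promoter had 0.126 in CAF-1 and 0.140 in Renilla, and the Tek promoter 0.126 and 0.130. The Pipox promoter had 0.162 and 0.186. The 6 histone promoters at clustered sites had low values, with medians of 0.0904 and 0.101 against 0.141 and 0.143 over all promoters, and 3 of the 6 were higher in CAF-1. Low values were shared by histone promoters in general, with medians of 0.101 in both conditions over all 57.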

How the data were processed

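Each Sox2 list, per the labels, holds positions called from 1 immunoprecipitate (goat polyclonal anti-Sox2) and the matching input. The submitters' processing notes give mm9 as the build and name BWA 0.7.8 and Bowtie, with no role. For the caller, the program was not given in the sources used here. Columns used, per the file headers, were the score, the false discovery rate (q-value) and the enrichment ratio with its lower bound, all as deposited by the authors. The largest deposited q-value was 0.000644. The E-value columns (3) were not used. The deposited Sono-seq table gives each region a value for CAF-1 and for Renilla, treated as a score, since its unit is unknown. It pairs ES cell enhancers and start sites with 5154 gene symbols. Date-like symbols (136 rows) were restored by transcript, and 5411 of 5510 transcripts were found in a RefSeq table of GRCm38.p6, used for names.

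Sites, clusters, ranks and distances were computed with Python 3.11.15, numpy 2.4.6 and pandas 2.3.3, and intervals with scipy 1.17.1 at 95%. Where a list had several positions in a site, its best score was used. Log2 ratios had no pseudocount, since no value was 0. The clustering steps were tested on simulated lists. Intervals cover counting error only, and depth is unknown.

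Genes were named by a rule: those within 50 kb of the 10 clusters with the most sites (ties by the better mean percentile) and of the 5 with the best ranks, the 10 closest starts, all genes of 9 lists within 50 kb, and, above the median level, the Sono-seq ratios at either end, 5 each. One gene that this rule names is not reported here. Histone genes, Pipox, Otud7b, Socs3, Fignl1, Klf13, Tek, Ptpn3 and Tesk2 were chosen after seeing values. Members and lists were chosen with earlier results of these data known.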

Additional observations from a re-analysis of the deposited data

How the results depend on the processing

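No paired analysis was possible because each hairpin has 1 Sox2 library and no result comes from a test. Of 109 alternative values, 85 stayed within 1.5 times the reported count or within the reported interval, and 24 moved. Clustered sites numbered 1711 with neighbours within 5 kb, 3860 within 20 kb, and 907 in 422 clusters when only positions with a lower bound of enrichment of 2 or more were kept. With that bound, 193 genes had a start within 50 kb, and the median rank percentiles of clustered sites were 28.0 (Renilla), 30.8 (Chaf1a.166) and 29.6 (Chaf1a.2122). The difference in median percentile, clustered minus isolated, was -0.29 (Renilla), -1.62 (Chaf1a.166) and -1.25 (Chaf1a.2122) as reported. With that bound it became 0.48 (-1.67 to 2.84), 1.30 (-1.50 to 3.68) and 1.66 (-1.02 to 3.76), each with an interval that spans 0. The Renilla difference was also above 0 with neighbours within 5 kb (0.096) and without Chaf1a.2122 (0.051). Intervals wholly below 0 were those of Chaf1a.166 without Renilla (-2.87), without Chaf1a.2122 (-2.16), with neighbours within 20 kb (-1.85) and joined within 100 bp (-1.72), and of Chaf1a.2122 without Chaf1a.166 (-2.46) and with neighbours within 20 kb (-1.46). All these intervals take sites as independent, which members of 1 cluster are not, and none of them is a test. In lists cut to equal length the medians were 32.3 in both knockdown lists (32.31 and 32.27). With sites held by 2 lists, the medians were 38.4 (Chaf1a.166) and 32.9 (Chaf1a.2122) without Renilla, 38.7 (Renilla) and 34.0 (Chaf1a.2122) without Chaf1a.166, and 35.4 (Renilla) and 37.5 (Chaf1a.166) without Chaf1a.2122. Ranked by enrichment they were 38.0, 41.6 and 38.7 in Renilla, Chaf1a.166 and Chaf1a.2122. By enrichment, the same site was the stronger in all lists in 41.0% of pairs. Gene counts were 197 within 10 kb and 829 within 100 kb. The cause of these moves was not tested beyond what each setting changes by construction. A position missing from a list may lie below its threshold, and depth is unknown.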

Other observations

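Other genes with a start within 500 bp of a clustered site, outside the lists and chosen after seeing values, include Neat1, a non-coding RNA of paraspeckles, at 137 bp from a site in a cluster of 3. Its site scored 20.4 in Renilla, 23.1 in Chaf1a.166 and 24.1 in Chaf1a.2122. Malat1 and Neat1 are neighbours on chromosome 19, and each had a cluster of its own. Ogt, which encodes the enzyme that adds O-GlcNAc to proteins, had a site 90.3 bp from its start, on the X chromosome, where clustered sites were least common. The beta-tubulin gene Tubb5 and Mdc1, a DNA damage response gene, had sites of 1 cluster of 3 at 156 and 298 bp from their starts. Tubb5's site scored 43.2, 34.7 and 31.8 in Renilla, Chaf1a.166 and Chaf1a.2122, and that of Mdc1 16.1, 26.1 and 21.2.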
